A study of Mus musculus with 15 samples.

Results

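The mitochondrial ribosomal proteins are the nuclear-encoded subunits of the ribosome that works inside mitochondria. Members were chosen by gene symbol alone, as every row named Mrpl or Mrps followed by a number and at most 1 of the letters a to c. This gave 76 of the 26628 genes in the table, 47 of the large subunit (Mrpl) and 29 of the small subunit (Mrps). All 76 are described, and 75 passed the filter on low values and entered the tests. Expression was compared between 2 brain regions, cerebellum (Ce) and striatum (St), of male Hsd:ICR mice labelled as 6 weeks old. Selected mice (Hi) came from a line bred for running long distances on wheels of their own accord, and control mice (Co) from an unselected line. The groups held 4 CeCo, 4 CeHi, 4 StCo and 3 StHi samples of whole dissected tissue. All mice, control mice included, had free access to a running wheel in the days before sampling, so inheritance and running itself cannot be told apart in a line difference. Each condition was represented by 1 line, so that differences from the selection and differences that any pair of closed lines would carry cannot be told apart. The direction of every line difference rests on the deposited sample labels.

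Mitochondria keep a small genome of their own that encodes core subunits of oxidative phosphorylation, together with ribosomal and transfer RNAs. Every protein of the mitochondrial ribosome is instead encoded in the nucleus, made in the cytosol and imported. The small subunit reads the messenger RNA and the large subunit forms the peptide bond at the inner membrane, where the products are inserted. Some subunits have bacterial counterparts and others exist only in mitochondrial ribosomes. Symbol and place do not always match: Mrps18a and Mrps30 are named as small-subunit proteins but sit in the large subunit of the mammalian particle, and Mrps36 is now known as a subunit of the 2-oxoglutarate dehydrogenase complex. All 3 were kept where the symbol puts them.

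The upstream sequences of 5 members are shown because they are among those with the largest differences: Mrpl9 and Mrps10 between lines, and Mrpl52, Mrps18a and Mrpl1 between regions. Mrpl48 is not shown because RefSeq gives it 4 starts, and Mrps35 had no entry. Each run is the 250 bases before the RefSeq start (GRCm38.p6), 5′ to 3′ on the strand of the gene, at chr3:94443086-94443335 for Mrpl9, chr17:47368947-47369196 for Mrps10, chr14:54426659-54426908 for Mrpl52, chr17:46110754-46111003 for Mrps18a and chr5:96209865-96210114 for Mrpl1, all on the plus strand. GENCODE gives all of these but Mrpl52 an earlier start, so those runs can hold transcribed bases. The runs of Mrps10 and Mrpl1 lie wholly inside the GENCODE genes, which start at chr17:47368887 and chr5:96209493. Those of Mrpl9 and Mrps18a reach into the GENCODE genes only at their end, from chr3:94443318 and chr17:46110986. Capitals mark matches, on either strand, to 3 motifs known from promoters of mitochondrial genes, written NRF1 (GCGCA and GCGC with any base between them), GABP (CCGGAAG) and YY1 (AAGATGGC).
Mrpl9: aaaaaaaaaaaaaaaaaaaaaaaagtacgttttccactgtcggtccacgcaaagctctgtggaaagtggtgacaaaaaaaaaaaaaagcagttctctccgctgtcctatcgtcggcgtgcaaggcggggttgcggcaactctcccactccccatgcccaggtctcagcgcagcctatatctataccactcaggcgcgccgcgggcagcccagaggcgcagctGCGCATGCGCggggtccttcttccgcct
Mrps10: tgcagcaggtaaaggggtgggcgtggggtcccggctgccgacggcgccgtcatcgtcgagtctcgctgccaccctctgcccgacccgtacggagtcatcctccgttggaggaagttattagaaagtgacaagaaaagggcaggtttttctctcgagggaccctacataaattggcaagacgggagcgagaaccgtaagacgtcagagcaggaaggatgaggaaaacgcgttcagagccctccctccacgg
Mrpl52: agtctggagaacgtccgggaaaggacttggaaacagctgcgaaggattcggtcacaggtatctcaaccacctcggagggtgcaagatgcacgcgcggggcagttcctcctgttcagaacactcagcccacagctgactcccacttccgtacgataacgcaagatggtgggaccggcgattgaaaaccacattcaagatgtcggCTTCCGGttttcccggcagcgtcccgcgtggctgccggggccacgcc
Mrps18a: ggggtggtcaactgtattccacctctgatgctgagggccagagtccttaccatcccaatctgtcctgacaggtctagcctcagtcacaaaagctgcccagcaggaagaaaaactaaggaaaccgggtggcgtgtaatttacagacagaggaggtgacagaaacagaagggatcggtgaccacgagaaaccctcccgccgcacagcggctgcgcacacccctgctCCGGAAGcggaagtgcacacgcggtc
Mrpl1: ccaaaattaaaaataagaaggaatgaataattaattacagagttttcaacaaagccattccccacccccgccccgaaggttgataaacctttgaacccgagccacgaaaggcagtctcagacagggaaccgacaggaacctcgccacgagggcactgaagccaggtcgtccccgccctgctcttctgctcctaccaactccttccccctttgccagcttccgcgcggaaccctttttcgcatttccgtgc
The Mrpl9 run held 1 NRF1 match, which reads the same on both strands, and the runs of Mrpl52 and Mrps18a each held 1 GABP match. Those of Mrps10 and Mrpl1 held none of these letters, but by GENCODE they do not lie before the start of the gene. Over the 300-base window from 250 bases before to 50 bases after the start, 67 of the 76 members had a RefSeq entry. A GABP match was present in 24 of the 67 (35.8%, against 9.93% of 27025 genes), an NRF1 match in 12 (17.9%, against 5.19%) and a YY1 match in 12 (17.9%, against 3.19%). At least 1 of the 3 motifs was present in 41 members (61.2%, against 16.4% of genes). The 27025 genes are all those with an entry, and they were not matched to the members for expression or base composition. Whether the shares are particular to the members was therefore not tested. A match of letters is a description of the window and not evidence of binding.

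Fragments numbered 32909447 to 47486319 per sample, and 1 fragment corresponded to 0.841 to 1.30 of the normalized counts given here, which are the deposited gene counts divided by a size factor per sample. The tissue labels held: all 9 striatum neuron markers were higher in the striatum, and all 8 granule cell and 5 Purkinje cell markers were higher in the cerebellum. CeHi replicate 3 stood apart in the median of its striatum neuron markers, at 1.76% of the striatum level against 0.415% to 0.598% in the other 7 cerebellum samples. It did not stand apart in their sum, which was 291 CPM (normalized counts per 1000000 of the sample's total) in a CeHi range of 264 to 292. Choroid plexus markers summed to between 23.6 and 2991 CPM among cerebellum samples and to 416 in StHi replicate 2, against 29.0 to 80.4 in the other striatum samples. The part of either in the results below was not tested, and line results are also given without these samples.

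The members were expressed at moderate and unequal levels. Per kilobase of exon, the mean normalized count over all samples ran from 23.7 for Mrpl36 to 2325 for Mrps21, with a median of 708. Mrps21 was followed by Mrpl42 (2106) and Mrpl41 (2060), both proteins of the large subunit. Lowest were Mrpl47 (151), Mrps17 (39.4) and Mrpl36. Mrps17 had 237 normalized counts but 6003 bases of annotated exon, so its place depends on the annotated length. Mrpl36, whose bacterial counterpart is the smallest protein of the large subunit, held 14.3 to 44.4 normalized counts per sample and was the member that did not pass the filter. Of the 76 members, 41 lay across another annotated gene, and in 21 more than 10% of the 50-base exon windows shared sequence with other genes. For Mrps25, the member with the most normalized counts (4932 ± 230 in CeCo, SD, n = 4), this share was 68.2%, mainly with Nr2c2 on the other strand, so its level is uncertain.

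The members differed little between regions. Of 75 members, 44 (58.7%) passed the test of striatum against cerebellum, where 80.2% of the 15213 genes tested did. Among the 44, 18 were higher in the striatum (39.6% of all genes were) and 26 in the cerebellum (40.6% of genes). The median log2 difference of the members was -0.04, against -0.01 over all genes, and the median size regardless of sign was 0.14 against 0.44. Only Mrpl48 and Mrpl52 differed by more than 1.5-fold, as 40.3% of all genes did, and for 73 members (97.3%, against 48.8% of genes) the 95% interval lay inside 1.5-fold either way. When values were scaled to the total of each sample instead, the median of all genes moved to -0.13 and that of the members to -0.15, and the calls split into 9 higher in the striatum and 44 higher in the cerebellum. The 16 members with the largest differences named here kept their direction and their call under that scaling. In whole tissue, fewer cells of a type and less RNA per cell cannot be told apart.

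**Figure D1:**
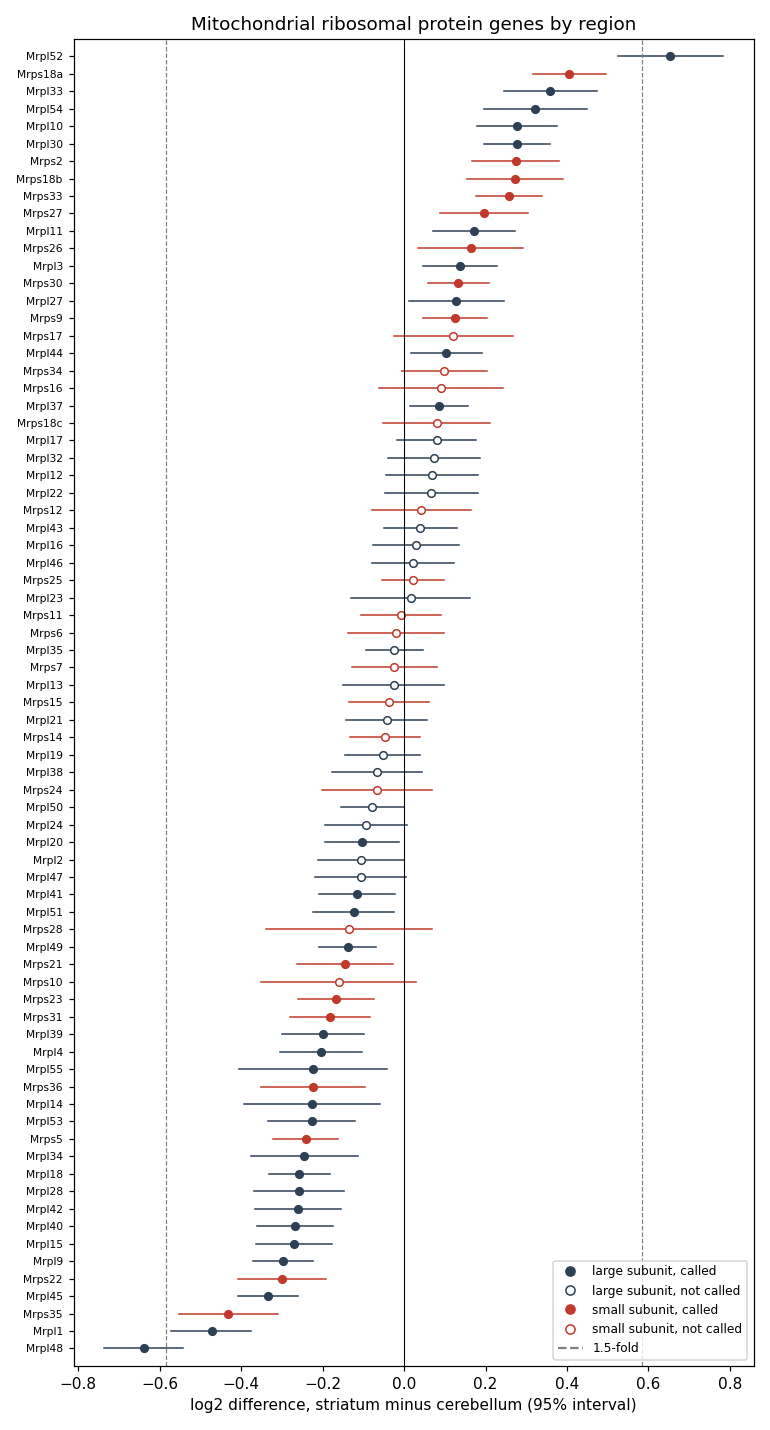
Log2 difference between striatum and cerebellum (x axis) for each of the 75 members tested (y axis, ordered by the difference). Points are the fitted differences over both lines with 95% intervals, filled where the adjusted p was under 0.05, and dashed lines mark 1.5-fold. Most members lie close to 0, and only Mrpl52 at the top and Mrpl48 at the bottom pass the dashed lines.

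Of 46 large-subunit members tested, 10 were called higher in the striatum and 19 in the cerebellum. Of 29 small-subunit members, the numbers were 8 and 7. The shares of all genes were 39.6% and 40.6%. Whether the subunits differed was not tested.

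Mrpl48, which encodes a large-subunit protein found only in mitochondrial ribosomes, showed the largest difference towards the cerebellum. Its normalized counts were 1862, 1782, 1856 and 1968 in CeCo and 1986, 1857, 1989 and 2233 in CeHi. In the striatum they were 1333, 1202, 1192 and 1165 in StCo and 1278, 1197 and 1298 in StHi. Every cerebellum sample was above every striatum sample. The fitted difference was -0.64 on the log2 scale (SE 0.05, 1.56-fold, limma FDR-adjusted P-value = 6.5e-10), with 1.52-fold between the Co groups and 1.59-fold between the Hi groups. Mrpl48 lies at chr7:100545751-100608301 on the minus strand and across Rab6a on the other strand, and 13.7% of its exon windows shared sequence with other genes.

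Mrpl1 encodes the protein of the mobile stalk by which transfer RNAs leave the ribosome. It had 907, 1056, 1017 and 957 normalized counts in CeCo and 1032, 1095, 945 and 1030.4 in CeHi. In StCo the counts were 707, 717, 786 and 694, and in StHi 724, 724.5 and 696. The regions did not overlap, and the difference was -0.47 (SE 0.05, adjusted p = 5.1e-08 with limma).

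The other 6 members with the largest differences towards the cerebellum were Mrps35 (-0.43), Mrpl45 (-0.33), Mrps22 (-0.30), Mrpl9 (-0.30), Mrpl15 (-0.27) and Mrpl40 (-0.27, all as log2 differences). Mrps35 and Mrps22 are small-subunit proteins without a bacterial counterpart, and Mrpl45 lies near the exit of the peptide tunnel, where it holds the ribosome to the membrane. Their adjusted p-values ran from 1e-07 for Mrpl45 to 3.7e-05 for Mrps22 with limma. In Mrpl45, cerebellum samples lay between 1707 and 1877 normalized counts and striatum samples between 1301 and 1528.

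Mrpl52, another large-subunit protein particular to mitochondria, showed the largest difference towards the striatum. Its normalized counts were 371, 357, 397 and 411 in CeCo and 370.0, 447, 470.5 and 462 in CeHi. They were 595, 615, 602 and 598 in StCo and 739, 667 and 645 in StHi. The lowest striatum sample was above the highest cerebellum sample, and the difference was 0.65 (SE 0.06, 1.57-fold, limma adjusted p = 2.4e-08). The fold was 1.58 between the Co groups and 1.57 between the Hi groups.

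The 3 Mrps18 genes encode related proteins that occupy different places in the ribosome, and they are set side by side for that reason. Mrps18a had 1252, 1161, 1184 and 1255 normalized counts in CeCo and 1215, 1209, 1313 and 1405.5 in CeHi. It had 1679, 1639.9, 1588 and 1640.0 in StCo and 1754, 1641 and 1589 in StHi. The regions did not overlap, and the difference was 0.41 (SE 0.04, adjusted p = 1e-07 with limma). Mrps18b was also higher in the striatum, by 0.27 (SE 0.06, adjusted p = 0.00025 with limma), but 30.2% of its exon windows shared sequence with other genes, mainly the antisense gene Gm16279. Mrps18c, the counterpart of the bacterial protein, had a difference of 0.08 (95% interval -0.05 to 0.21) and did not pass the test.

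Of the other members furthest towards the striatum, Mrpl33 differed by 0.36, Mrpl54 by 0.32, and Mrpl10, Mrpl30 and Mrps2 by 0.28, 0.28 and 0.27 (log2 differences, limma adjusted p between 3.7e-06 and 8.9e-05). Mrpl10 forms the base of the stalk that recruits translation factors, and Mrps2, Mrpl30 and Mrpl33 have bacterial counterparts. Mrpl12, the protein of that stalk, which also binds the mitochondrial RNA polymerase, differed by 0.07 (95% interval -0.04 to 0.18). Mrps12, at the decoding centre of the small subunit, differed by 0.04 (95% interval -0.08 to 0.16). Neither passed the test.

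**Figure D2:**
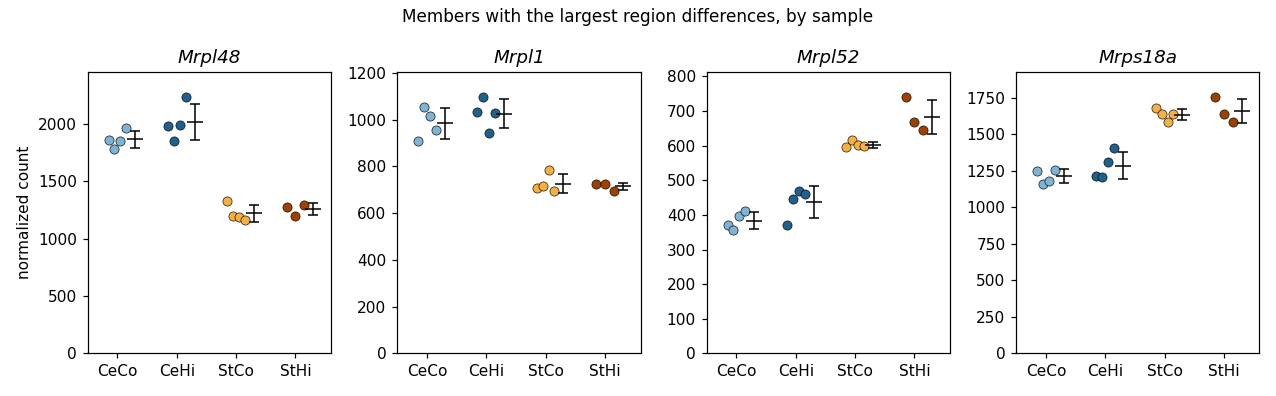
Normalized counts (y axis) of Mrpl48, Mrpl1, Mrpl52 and Mrps18a in each sample of the 4 groups (x axis), with the group mean and SD beside the points. For Mrpl48 and Mrpl1 all cerebellum samples are above all striatum samples, and for Mrpl52 and Mrps18a all are below.

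The region differences were also taken within each line, as contrasts of the same model. The groups compared share no sample, but both contrasts share the model's estimate of the spread. In the control line 32 of 75 members passed (74.7% of genes did) and in the selected line 33 did (70.5% of genes). In 26 members both contrasts passed in the same direction, 9 higher in the striatum and 17 higher in the cerebellum, against 65.9% of all genes. No member passed in opposite directions. The sign was the same in 70 of 75 members.

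Genes that work with the mitochondrial ribosome were taken from 6 further lists, whose counts stand against 39.6% of all genes called higher in the striatum and 40.6% in the cerebellum (80.2% in all). Most of the shares called were near or below that of all genes, and whether they differed from the members was not tested. All 4 called of 8 other mitoribosome proteins were higher in the cerebellum, among them Ict1 (-0.39), a peptidyl-tRNA hydrolase built into the large subunit, and Ptcd3 (-0.22) of the small subunit. Of 14 translation factors, 1 was higher in the striatum and 9 in the cerebellum, including Metap1d (-0.65), which removes the first methionine, and the elongation factor Guf1 (-0.36). Assembly factors split into 8 higher in the striatum and 12 higher in the cerebellum of 28. Rbfa, which matures the small subunit, differed by 0.71, and the ribosomal RNA methyltransferase Mettl15 by -1.01 and Mterfd2, which brings a methyltransferase to the large subunit, by -0.92. Of 19 genes for charging mitochondrial transfer RNAs, 7 were higher in the striatum, with Fars2 (0.67) and Nars2 (0.62) foremost, and 5 in the cerebellum, with Aars2 (-0.60) and Hars2 (-0.55). Of 17 factors of mitochondrial DNA and RNA, 6 and 8 were higher in striatum and cerebellum, among the latter the DNA polymerase subunit Polg2 (-1.76), the RNA polymerase Polrmt (-0.53) and Tfam (-0.40), which packages the genome and starts its transcription. Of 12 nuclear regulators of mitochondrial genes, 2 were higher in the striatum, Myc (1.49) among them, and 9 in the cerebellum, including Gabpb2 (-1.60), a partner of the GABP factor, Esrrg (-1.57) and the coactivator Ppargc1b (-1.35). All values are log2 differences, and the lists were written with earlier results of these data known.

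Of 2 related gene families, the share called was near that of all genes (83.1% and 78%, against 80.2%), while the calls fell mostly on 1 side. Among 83 cytosolic ribosomal proteins, 64 were higher in the striatum and 5 in the cerebellum, with a median of 0.26. Among 82 genes of the respiratory chain and ATP synthase, whose products assemble with subunits made by the mitochondrial ribosome, 4 were higher in the striatum and 60 in the cerebellum, with a median of -0.24. Whether the 3 families differed was not tested. As a share of all normalized counts, the members summed to 2202 ± 67.4 CPM in CeCo (SD, n = 4), 2320.4 ± 136 in CeHi (n = 4), 1998 ± 42.4 in StCo (n = 4) and 2068 ± 76.9 in StHi (n = 3). On this scale, which is relative to the total, the regions did not overlap within a line. Control samples held 2131 to 2290 CPM in CeCo and 1964 to 2055 in StCo. Selected samples held 2191 to 2507.5 in CeHi and 1994 to 2148 in StHi. Across lines, the lowest cerebellum sample (2131, CeCo) was below the highest striatum sample (2148, StHi).

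**Figure D3:**
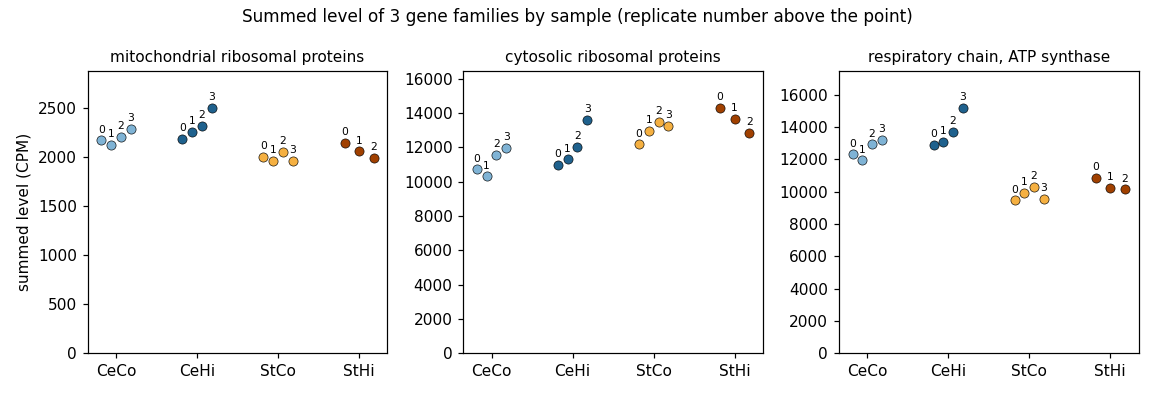
Summed level in CPM (y axis, from 0) of the mitochondrial ribosomal proteins, the cytosolic ribosomal proteins and genes for the respiratory chain and the ATP synthase, in each sample of the 4 groups (x axis), with the replicate number above each point. CeHi replicate 3 and StHi replicate 0 are the highest of their groups in all 3 panels.

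Between lines, few members passed the tests, at shares near or below those of all genes. A member that did not pass is not shown to be unchanged. In the cerebellum 3 of 75 members passed (4%, against 5.94% of all genes): Mrpl9, Mrps10 and Mrpl42, all higher in CeHi (2.94% of genes). In the striatum 2 passed (2.67%, against 2.66% of genes), Mrpl9 and Mrps10, both higher in StHi (1.49% of genes). The fit over both regions called 5 members (6.67%, against 8.48% of genes), with Mrpl37 added to the 4 higher (4.34% of genes) and Mrpl2 as the member lower in Hi (4.14% of genes). Both regions called the same direction in 2 members, against 1.34% of genes.

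Mrpl9 encodes a large-subunit protein with a bacterial counterpart. Its normalized counts were 1285, 1275, 1254 and 1298.5 in CeCo and 1803, 1857, 1761 and 1803 in CeHi. In the striatum they were 973, 957, 966 and 1050.4 in StCo and 1579.9, 1477 and 1564 in StHi. No selected sample overlapped the control samples of its region. The difference was 0.49 in the cerebellum (SE 0.05, 1.41-fold, adjusted p = 3.3e-06 with limma) and 0.64 in the striatum (SE 0.05, 1.55-fold, adjusted p = 6.2e-07 with limma). The 2 differences themselves differed by 0.14 (SE 0.07), which did not pass the test over all genes (limma adjusted p = 0.54). Mrpl9 lies at chr3:94443318-94451130 on the plus strand and across Oaz3 on the other strand, and 5.05% of its exon windows shared sequence with other genes. It is the gene whose upstream run, printed above, held the NRF1 match.

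Mrps10 encodes a small-subunit protein of the head of the particle, with a bacterial counterpart. It had 513, 489.5, 699 and 507 normalized counts in CeCo and 898, 865, 908 and 1047 in CeHi. It had 448, 505, 638 and 436 in StCo and 824, 808 and 775 in StHi. All selected samples were above all control samples of their region, but replicate 2 was the highest of both control groups. The difference was 0.76 in the cerebellum (SE 0.12, 1.69-fold, adjusted p = 0.00087 with limma) and 0.67 in the striatum (SE 0.13, 1.59-fold, adjusted p = 0.0086 with limma). Over both regions it was 0.71, or 1.64-fold. Mrps10 lies at chr17:47368887-47381417 on the plus strand, and no other annotated gene lay across it.

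**Figure D4:**
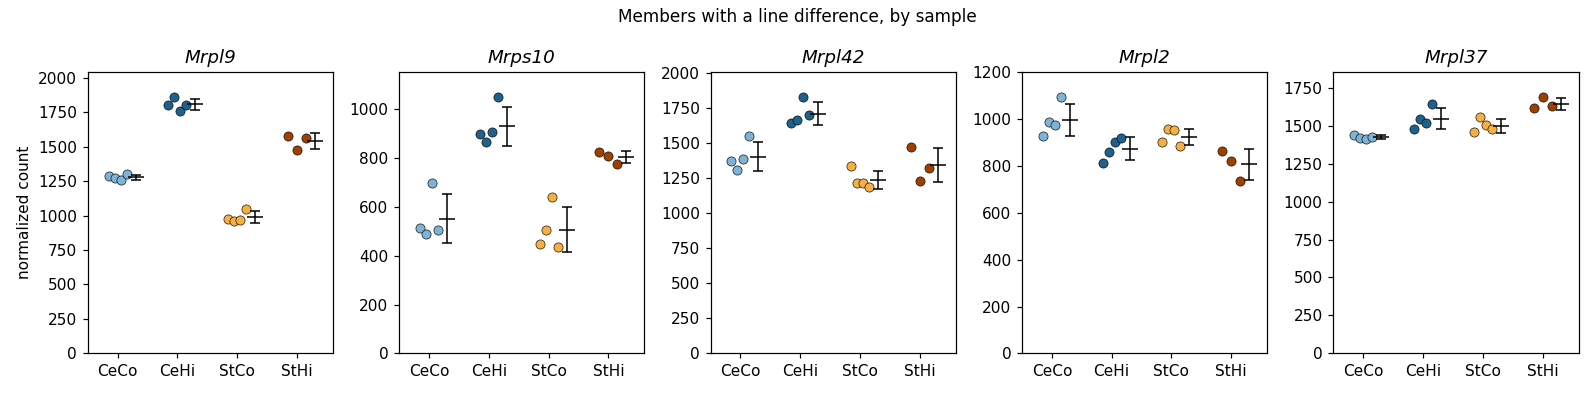
Normalized counts (y axis, from 0) of Mrpl9, Mrps10, Mrpl42, Mrpl2 and Mrpl37 in each sample of the 4 groups (x axis), with the group mean and SD beside the points. Selected samples are above the control samples of their region without overlap for Mrpl9, Mrps10 and Mrpl37 and below them for Mrpl2, the StHi and StCo samples of Mrpl42 overlap, and replicate 2 of both control groups is the highest for Mrps10.

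Mrpl42, a large-subunit protein found only in mitochondrial ribosomes, had 1371, 1307, 1390.0 and 1551 normalized counts in CeCo and 1646, 1667, 1827.5 and 1701 in CeHi. It had 1335.5, 1214, 1219 and 1189 in StCo and 1475, 1233 and 1324 in StHi. The cerebellum groups did not overlap and the striatum groups did. The difference was 0.28 in the cerebellum (SE 0.07, limma adjusted p = 0.021) and 0.11 in the striatum (95% interval -0.05 to 0.26), and the test of the difference between them did not pass (limma adjusted p = 0.66). Without CeCo replicate 0, CeCo replicate 1 or CeHi replicate 2, the cerebellum call was lost (limma adjusted p = 0.052, 0.063 and 0.058). The call over both regions was kept in 28 of 30 alternatives.

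Mrpl2 was the member called lower in the selected line. It encodes a core protein of the large subunit beside the catalytic centre. Its normalized counts were 928, 988, 975 and 1093 in CeCo, 811.5, 861, 901 and 921.5 in CeHi, 901, 956, 952 and 887 in StCo and 863, 822.5 and 736 in StHi. The groups of each region did not overlap. Over both regions the difference was -0.20 (SE 0.05, limma adjusted p = 0.019), with -0.19 in the cerebellum and -0.20 in the striatum. It did not pass without StHi replicate 2 (limma adjusted p = 0.063). Mrpl2 and Mrps10 lie on the same chromosome, 719 kilobases apart (from the end of Mrpl2 to the start of Mrps10), and differed between lines in opposite directions.

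Mrpl37, a large-subunit protein without a bacterial counterpart, had 1442, 1417.5, 1411 and 1427 normalized counts in CeCo and 1477, 1546.5, 1518 and 1643 in CeHi. It had 1459, 1559, 1502 and 1475 in StCo and 1615, 1686 and 1630.3 in StHi. The groups of each region did not overlap, and the differences were small: 0.11 in the cerebellum, 0.13 in the striatum and 0.12 over both (SE 0.03, limma adjusted p = 0.035). The call was lost without any of CeCo replicate 1, StCo replicate 0, StCo replicate 3, StHi replicate 1 or StHi replicate 2 (limma adjusted p between 0.055 and 0.092). Over all alternatives run, it was kept in 24 of 30.

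The next members by p did not pass, though some passed under other settings. Mrps6 differed by 0.23 in the cerebellum (limma adjusted p = 0.09) and lies across the transporter gene Slc5a3. Mrps9 differed by -0.20 in the striatum (limma adjusted p = 0.065) and by -0.01 in the cerebellum. Mrps28 differed by 0.39 in the striatum (limma adjusted p = 0.18), with StCo values between 263 and 403 and StHi values between 379 and 466 that overlapped.

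**Figure D5:**
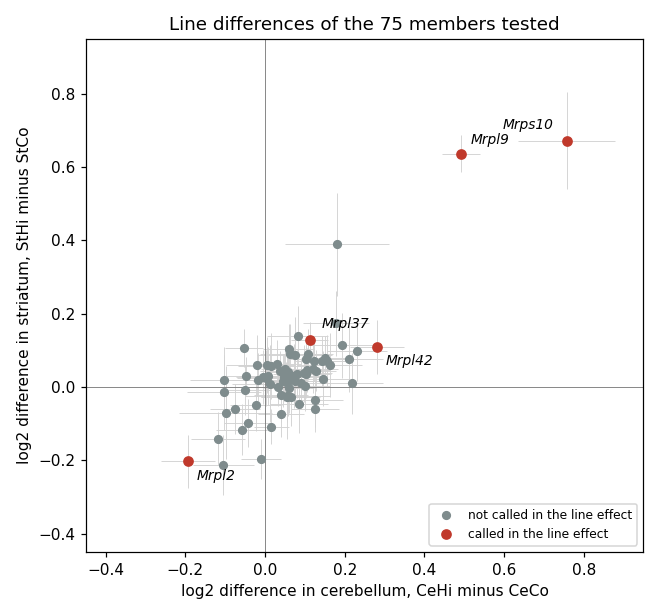
Log2 difference between lines in the cerebellum (x axis) and in the striatum (y axis) for the 75 members tested, with standard errors as grey bars. Members called in the fit over both regions are red and named: Mrpl9 and Mrps10 lie far to the upper right, and the other 3 sit at the edge of the main cloud.

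No member passed the test of whether the line difference varied between regions, where 0.532% of genes did. Before adjustment, 2 members were under 0.05 in the limma fit, and the smaller of these belonged to Mrps9 (adjusted p = 0.39 with limma). Neither edgeR nor DESeq2 on the recovered fragments called any member. For 74 members (98.7%, against 71.3% of genes) the 95% interval of this difference lay inside 1.5-fold either way.

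Over all 75 members tested, those called included, small differences were more often towards the samples labelled Hi. In the cerebellum 58 had a positive difference (49.4% of all genes did), with a median of 0.06, and in the striatum 54 did (48.3% of genes), with a median of 0.03. No gene in the table tests the line labels independently. These medians moved with 1 sample in each region. CeHi replicate 3 was the highest of its group in 55 members (73.3%, against 34.2% of all genes), and StHi replicate 0 in 54 (72%, against 37.8%). Without CeHi replicate 3 the cerebellum median was 0.02 with 50 members positive, and without StHi replicate 0 the striatum median was -0.01 with 37 positive. Without StHi replicate 2, the sample with choroid plexus markers, it was 0.05 with 58 positive. Cytosolic ribosomal proteins (0.10 in the cerebellum, 0.05 in the striatum) and the oxidative phosphorylation genes (0.12 and 0.06) had medians of the same sign, and without CeHi replicate 3 in the cerebellum and StHi replicate 0 in the striatum these were 0.04 and 0.01, and 0.07 and 0.02. Sums of some cell type markers also went with the line label, mostly without calls. Summed striatum neuron markers were 207 to 246 CPM in CeCo and 264 to 292 in CeHi, with all 9 positive, a median log2 difference of 0.39 and none called. Granule cell markers went the other way, with sums of 6499 to 7265 CPM in CeCo and 5993 to 6561 in CeHi. None of these 8 was positive in the cerebellum, where their median log2 difference was -0.13 and none was called. In the striatum 3 of the 8 were positive and 1 was called higher in StHi. Summed oligodendrocyte markers were 4390 to 6237 CPM in StCo and 6678 to 7601 in StHi. Of these, 4 of 5 were positive in the striatum, with a median log2 difference of 0.38, and 2 of 5 were called higher in Hi over both regions. Of 5 microglia markers, 4 were positive and 2 called higher in Hi over both regions. Of 5 astrocyte and Bergmann glia markers, 5 were positive and 1 called higher. No Purkinje cell, endothelium or choroid plexus marker was called between lines. The part of these markers in the line differences was not tested. The calls of Mrpl9 and Mrps10 held without CeHi replicate 3, without StHi replicate 0, without both and without StHi replicate 2.

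Among the genes that work with the ribosome, line differences over both regions were found in 2 of 8 other mitoribosome proteins, 1 of 14 translation factors, 3 of 28 assembly factors, 3 of 19 genes for charging transfer RNAs, none of 17 factors of mitochondrial DNA and RNA and 1 of 12 regulators, against 8.48% of all genes. All 3 charging genes were lower in Hi. Aars2, the alanyl-tRNA synthetase, had 1651 ± 164 normalized counts in CeCo, 1068 ± 20.7 in CeHi, 993 ± 60 in StCo (each SD, n = 4) and 766 ± 65.8 in StHi (SD, n = 3). It was the largest of them, at -0.51 over both regions (limma adjusted p = 9e-06). Gatc, of the complex that makes glutaminyl-tRNA, differed by -0.28 and Rars2 by -0.20. Of the assembly factors, Tfb1m, which methylates the small ribosomal RNA, differed by -0.39 (limma adjusted p = 0.0026) and the large-subunit factor Gtpbp6 by -0.43 (limma adjusted p = 0.00043). The elongation factor Guf1 differed by -0.17 (limma adjusted p = 0.0074). Higher in Hi were the assembly factor Noa1 (0.27), the small-subunit protein Dap3 (0.19), Aurkaip1 (0.34) and the nuclear receptor Esrra (0.14).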

How the data were processed

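RNA of whole cerebellum and striatum was sequenced by the authors as 100-base read pairs, aligned to GRCm38 with TopHat2 and summarised per gene with Cuffnorm 2.2.1. The authors deposited a signal per gene, which is its fragment count over a size factor of the sample. It was not divided by length, despite the table's name (FPKM): between 99.6% and 99.8% of low values (up to 20 fragments) were whole multiples of a common step within a tolerance of 0.1. The deposited column labels gave the groups. 1 StHi sample that the authors left out was not used here.

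Values were scaled by TMM (edgeR 4.0.16), a pseudocount of 1 was added, and log2 values were fitted for the 15213 genes that reached a CPM of 1 in no fewer than 3 samples, with limma 3.58.1 (R 4.3.3; trended, robust moderation) in a single model of the 4 groups. Fold changes are therefore on the log2(value + 1) scale. Members were called at a Benjamini-Hochberg adjusted p under 0.05 over all genes. Contrasts were striatum minus cerebellum and Hi minus Co, over and within the other factor, and their interaction. Labels name no cultures, litters or batches, and the p-values measure the spread between these samples. Alternatives were other scalings, filters, pseudocounts, weights, blocks and omitted samples, and edgeR and DESeq2 1.42.0 on recovered fragments. The script was tested on simulated data. All p-values from limma are two-sided.

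The members and lists were chosen with earlier results of these data known. Named members are the 8 largest called differences between regions in each direction, all members called between lines, the 5 smallest p of each line contrast, the 3 highest and 3 lowest per kilobase, those below the filter, and Mrps18a, Mrps18b, Mrps18c, Mrpl12 and Mrps12. Mrps25 was added after its values were seen. For other lists, genes named under the region contrast are among the 4 with the smallest p. Coordinates, exon lengths and overlaps are from GENCODE M21 (GRCm38). Upstream sequences are from RefSeq (GRCm38.p6), matched by symbol. The library's strand setting is not given in the sources used here, so reads of overlapping genes cannot be told apart.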

Additional observations from a re-analysis of the deposited data

Results flagged for a closer look

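In groups of 4 samples, a sample was marked where its gap to the nearest other sample was large for the range of the group. This was tested in 96 groups, for the named members and the summed level, and marked 4, where chance alone marks about 1 in 20. Mrps10 stood at 699 normalized counts in CeCo replicate 2, against 489.5 to 513 in the other 3 samples. Without that sample the cerebellum difference between lines remained called. Mrpl9 stood at 1050 in StCo replicate 3, against 957 to 973 in the others, which is still below all StHi samples. Mrpl12 stood at 2004 in CeHi replicate 3, against 1551 to 1628, in the sample that was highest for most members. Mrps12 stood at 1037 in StCo replicate 3, against 1177 to 1197.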

How the results depend on the processing

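The counts of members called kept within 1.5 times the main count in each contrast under all alternatives run, except that the fit of lines over both regions called 3 members without StHi replicate 2 in place of 5. Leaving out each sample in turn gave 39 to 47 members for the region difference, 28 to 34 in the control line and 27 to 35 in the selected line. It gave 2 to 3 for the line difference in the cerebellum, 2 to 3 in the striatum and 3 to 7 over both regions. Replicate numbers are shared by the groups, and the labels do not say whether same-numbered samples came from the same mouse. Residuals of same-numbered samples correlated at 0.171 to 0.278 between CeCo and StCo and at -0.08 to 0.05 between CeHi and StHi. The main fit did not take the numbers as pairs. If mice were shared, the line fit over both regions treated samples of the same mouse as independent. Mrpl2 and Mrpl37 were called only in that fit. With the replicate number as a term common to Co and Hi, 45 members were called between regions and 7 between lines over both regions. The 7 were the same 5 with Mrps28 (limma adjusted p = 0.028) and Mrps14 (adjusted p = 0.038 with limma), the latter named after its values were seen. A term common to both lines cannot stand for a mouse, so this fit does not address mice shared between regions. Over both regions Mrps28 passed in 3 of 30 alternatives and Mrps6 in 2, with adjusted p from 0.024 to 0.2 and from 0.046 to 0.2 over limma, edgeR and DESeq2. Scaling to the total of each sample, added after the data were seen, moved the region median to -0.154 over both lines, -0.134 in the control line and -0.166 in the selected line. Mrps9 in the striatum stayed uncalled in 28 of 31 alternatives. Those in which it passed included sample weights (limma adjusted p = 0.035) and DESeq2 (adjusted p = 0.019). Its adjusted p ranged from 0.019 to 0.21 over limma, edgeR and DESeq2. Mrpl9 and Mrps10 kept their direction and calls in every alternative run. Depth limits mainly Mrpl36, which stayed below the filter.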

Other observations

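Outside the members, Lars2, the mitochondrial leucyl-tRNA synthetase, was noticed for its spread after the values were seen. It had 6662 ± 1640 normalized counts in CeCo, 13539 ± 15000 in CeHi, 5706 ± 2030 in StCo (SD, n = 4 each) and 5143 ± 332 in StHi (SD, n = 3), and passed no test. Within 1 megabase on either side of Mrpl9, 3 of 35 tested genes (8.57%) differed between lines over both regions, where 8.48% of all genes did. Around Mrps10 5 of 31 (16.1%) did, and around Mrpl2 7 of 39 (17.9%). These 2 windows overlap, and each of the 2 members counts among the other's neighbours. Around Mrpl42 2 of 7 (28.6%) did, and around Mrpl37 2 of 20 (10%).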
